A study of Danio rerio with 10 samples.

Results

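Inflammatory cytokine genes were followed through 3 histone marks before and after injury of the lateral rectus, one of the muscles that move the eye, in zebrafish. The set holds 10 genes, il1b, il6, il10, il11a, il11b, tnfa, tnfb, cxcl8a, il34 and tnfrsfa, out of 24860 genes named in the deposited region tables. A region of a mark was counted to a gene when the authors' gene column named that gene, and 8 of the 10 genes had at least 1 region, with 41 of the 78452 regions in all. The region whose middle lay nearest to a gene's start is called its start region. The 10 genes were picked by name and by no threshold on their pileups, but with earlier results of these data known.

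Cytokines are secreted proteins with which damaged tissue and immune cells call in and instruct other cells. Interleukin-1 beta, tumour necrosis factor (TNF) and the chemokine Cxcl8 start inflammation, interleukin-6 and interleukin-11 act through the shared receptor chain gp130, and interleukin-10 dampens the response. In injured muscle, leukocytes that clear debris are a main source of such factors. Among the marks, acetylation of histone H3 at lysine 27 (H3K27Ac) is found where promoters and enhancers are in use. Trimethylation of lysine 4 (H3K4me3) sits at gene starts, and trimethylation of lysine 27 (H3K27me3) is laid down by Polycomb proteins where genes are silent.

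Muscle came from sexually mature adult zebrafish of 4 to 18 months, described as wild-type and α-actin::EGFP, a transgene driven by a muscle actin promoter. The design text names wild-type fish alone, and the make-up of each pool by genotype was not stated there. Approximately 50% of the muscle was cut out, and tissue was pooled from 119 uninjured fish (control), 192 fish at 9 hours post-injury (hpi) and 200 fish at 18 hpi. Each of the 3 marks had 1 library per time, so the differences have no replicates behind them and could not be tested. In such pooled tissue, more cells of a type and more of a mark per cell cannot be told apart. Sequencing depth is not known for any library.

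Values are average pileups, the mean number of overlapping tags over the bins of a region. A relative log2 change is log2((average at 1 time + 1)/(average at another + 1)) minus the median of the same change over the mark's regions at or above the 25th percentile of signal. That median was 0.23 at 9 hpi and −0.16 at 18 hpi for H3K27Ac, and between −0.054 and −0.0021 for both other marks at either time. "Higher", "rose", "lower" and "fell" stand for a relative log2 change of at least 1 or at most −1, that is, 2-fold. A region entered the tables only where an interval had been called in at least 1 library, so a region with an interval at 9 hpi alone had to be strong there.

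H3K27Ac at the starts of the interleukin genes il1b, il6 and il10 rose between control and 9 hpi and was closer to control again at 18 hpi. The start regions of the TNF gene tnfb, the chemokine gene cxcl8a and the receptor gene tnfrsfa changed less than 2-fold at both times. Of the 7 genes with an H3K27Ac region, 3 were higher and 0 lower at 9 hpi, and 1, il1b, was higher at 18 hpi. Among the start regions of all 21907 genes with one, 6.89% were higher and 9.14% lower at 9 hpi, and 6.79% were higher and 7.78% lower at 18 hpi. The median relative log2 change of the 7 genes was 0.52 at 9 hpi and 0.41 at 18 hpi, against 0.12 and 0.00090 over all genes. The start regions of all 3 genes that rose had an interval at 9 hpi and none in control or at 18 hpi. That pattern was found at 4.75% of all start regions. Of all start regions with an interval at 9 hpi and none in control, 41.3% were higher at 9 hpi.

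**Figure D1:**
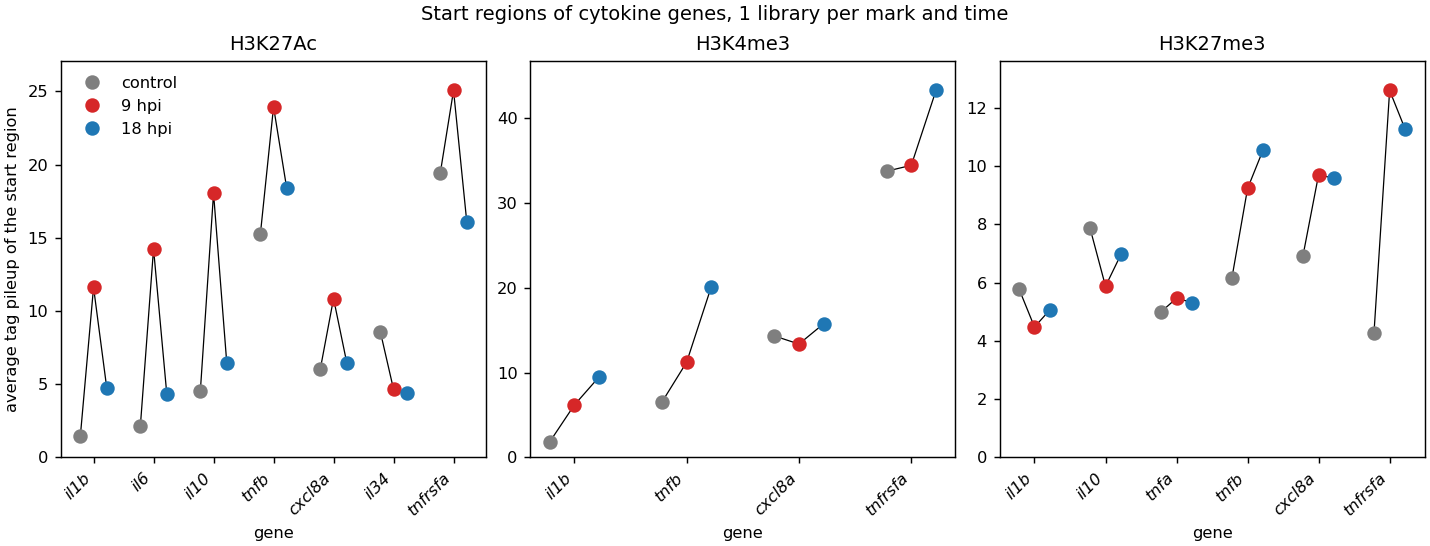
Average tag pileup of the start region of each cytokine gene (vertical axes, from 0) in control, at 9 hpi and at 18 hpi, 1 point per library, with 1 panel per mark. The H3K27Ac points of every gene except il34 stand highest at 9 hpi, while all 4 genes in the H3K4me3 panel are highest at 18 hpi.

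The gene il1b encodes interleukin-1 beta, an early signal of tissue damage. Its H3K27Ac start region (chromosome 10, 45106401 to 45107600, danRer10, upstream of the gene) averaged 1.46 in the control library, rising to 11.6 by 9 hpi and standing at 4.75 by 18 hpi, with a maximum of 3, 27 and 12 tags. On the relative log2 scale the 9 hpi change was 2.13 and the 18 hpi change 1.38. The 9 hpi change exceeded that of 99.7% of genes, although the region's mean signal exceeded that of only 3.51%. The 18 hpi library lay between the other two.

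The next region, 8 bp farther by its middle, is the one that covers the start of il1b (45108601 to 45112200). There the control average of 2.88 was followed by 11.5 and 5.77 after injury, and the relative log2 change was 1.46 and then 0.96, just below 2-fold. A region whose middle lies 8596 bp upstream, which also names LOC566865, went from 3.96 to 18.2 and back to 6.07. Another at 5596 bp upstream had 3.74, 9.64 and 7.33, with relative changes of 0.94 and 0.97. As deposited, the 4 regions from 8596 bp upstream to the one over the start were all highest at 9 hpi. After centring, the one at 5596 bp was nearly equal at both times. None of the 4 had an interval in control. At 18 hpi an interval was still called in the region over the start and in the one at 5596 bp. The fifth region naming il1b, a broad one of 16400 bp with a CpG island that also names purbb and h2afvb, had 22.5, 23.0 and 19.8 and relative changes of −0.20 and −0.019.

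**Figure D2:**
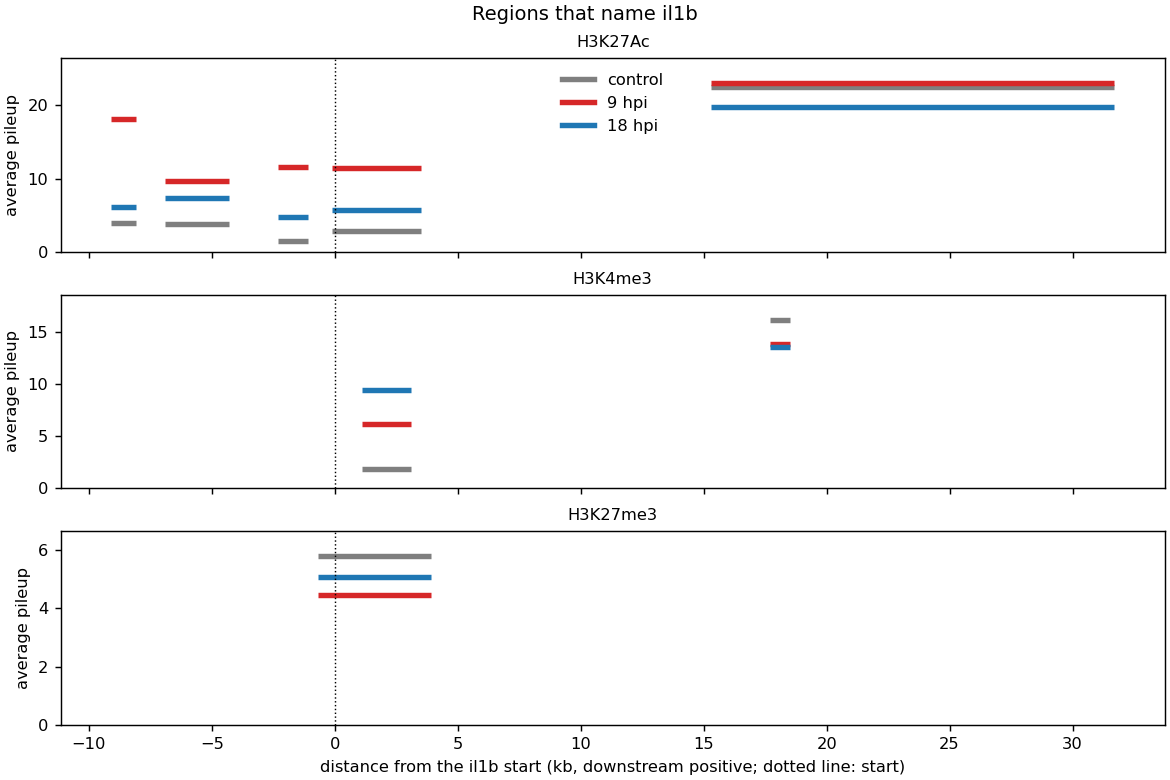
Regions that name il1b, drawn as bars from their first to their last base against the distance of the region from the gene's start in kb (horizontal axis), at the height of their average pileup (vertical axes) in control, at 9 hpi and at 18 hpi, with 1 panel per mark. The 4 H3K27Ac regions left of 5 kb are highest at 9 hpi, the H3K4me3 region in the gene is highest at 18 hpi at 9.48, and the H3K27me3 region over the start is highest in control at 5.8.

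Interleukin-6, encoded by il6, signals through gp130 and is made by many cell types after injury. Its H3K27Ac start region (chromosome 19, 2775801 to 2777200) covers the gene's start, and its average of 2.13 in control was followed by 14.25 and then 4.37. The maximum went from 5 to 58 and then 12 tags. The relative log2 change was 2.06 at 9 hpi, above that of 99.6% of genes, and 0.93 at 18 hpi. From 9 to 18 hpi it fell, with a relative change of −1.16. This region also names LOC560859 and LOC100537161, so it cannot be given to il6 alone. A second region 18953 bp from the start, which also names tomm7, had 11.8, 20.9 and 12.15 and relative changes of 0.55 and 0.20.

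Interleukin-10, encoded by il10, restrains inflammation. Its H3K27Ac region (chromosome 11, 20977401 to 20980200) covers the gene's start and went from 4.54 to 18.05 and then 6.47, with maxima of 10, 53 and 16 tags. After the same centring the log2 change was 1.55 for 9 hpi, 0.59 for 18 hpi, and −1.0015 between the injured libraries. The pileup at 9 hpi stood apart from the other two libraries. Between 9 and 18 hpi, 2 of the 7 genes, il6 and il10, were lower and none was higher, where 0.927% of all start regions were lower, and 5.67% of those with an interval at 9 hpi and none in control. With a pseudocount of 5 in place of 1 these falls were −0.77 at il6 and −0.74 at il10, short of 2-fold.

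The gene tnfb encodes a zebrafish TNF. Its start region (chromosome 15, 34839601 to 34848200) already carried H3K27Ac in control, at 15.2, and had 23.9 and 18.4 after injury, with relative changes of 0.39 and 0.41. A weaker region 11775 bp downstream of the start moved otherwise: its average was 2.07, then 4.40 and then 9.66, and it rose at 18 hpi alone, with relative changes of 0.59 and 1.95. That region also names the GABA receptor gene gabbr1a. Upstream, at 4925 bp, the values were 9.18, 11.3 and 6.28. No H3K27Ac or H3K4me3 region named the other TNF gene, tnfa.

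Neutrophils follow the chemokine encoded by cxcl8a. The start region (chromosome 1, 13566401 to 13572400) averaged 6.06, then 10.9 and then 6.48, with relative changes of 0.52 and 0.24. Its width of 6000 bp came from the 18 hpi library: the interval at the start was 800 bp long in control with an average of 22.6, 1000 bp at 9 hpi with 33.0, and 5800 bp at 18 hpi with 6.54. The maximum pileup there was 47, 64 and 21 tags, and its relative log2 changes were −0.014 and −0.90. So at the start itself the 18 hpi library was the lowest. By contrast, the region 7653 bp downstream (13573201 to 13575400) rose at both times, from 3.46 to 21.1 and 9.43, with relative changes of 2.08 and 1.39, and had intervals at 9 and 18 hpi but none in control. Both regions also name LOC100334568.

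The only region naming il34, a H3K27Ac region 8847 bp upstream on chromosome 11 (20925801 to 20927800), went down from 8.58 to 4.66 and 4.37. The relative changes were −0.99 and −0.68, so it stayed just short of 2-fold, and the interval was called in control only. The region also names prelp, a matrix proteoglycan gene, and the 2 regions that name prelp alone went from 20.1 to 6.92 and 5.76 and from 14.3 to 4.85 and 4.33. The name itself is uncertain. The files place il34 on chromosome 11 between prelp and il10, where the RefSeq table of GRCz12tu lists il19l, while that table has il34 on chromosome 18 between lonp2 and sf3b3. The chromosomes of the other 7 genes with regions were the same in both. The names il11a and il11b, of 2 interleukins that act through gp130, stood in none of the region tables or interval lists used here, so no value can be given for them.

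The receptor gene tnfrsfa belongs to the TNF receptor family and was the member with most regions, 8 of the 22 for H3K27Ac. Its start region (chromosome 21, 16118601 to 16128600) had 19.5 before injury, 25.1 at the first and 16.1 at the second time, with relative changes of 0.12 and −0.10. None of its 8 H3K27Ac regions was higher or lower at either time. The greatest relative change at 9 hpi among them was 0.78, in a region 5924 bp inside the gene that had 8.03, 17.2 and 12.3 and an interval at 9 hpi only. In control, the 2 genes with the highest H3K27Ac averages at their start regions were tnfrsfa and tnfb, followed by il34, cxcl8a, il10, il6 and il1b. With 1 library each no spread is known, so neighbours in this order cannot be told apart. The regions also differ in width and in distance from the start. Over the control interval at the start alone, the average was 37.5 at tnfrsfa, 22.6 at cxcl8a and 21.2 at tnfb. So the place of cxcl8a in this order depends on the width used.

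**Figure D3:**
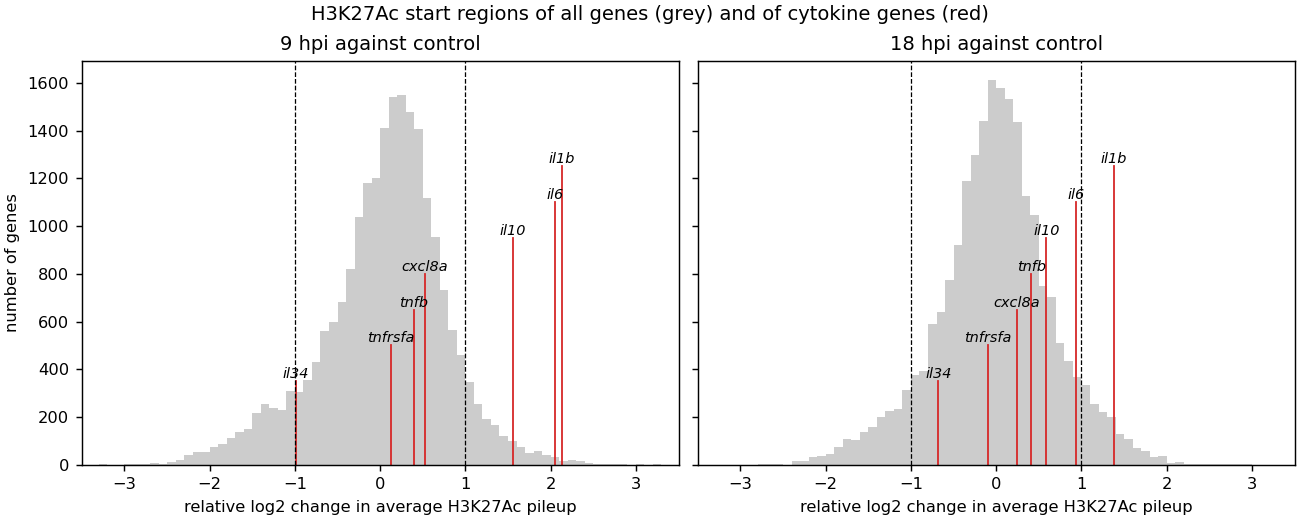
Distribution of the relative log2 change in average H3K27Ac pileup over the start regions of 21907 genes (grey bars, number of genes per bin) at 9 hpi (left) and 18 hpi (right) against control, with the 7 cytokine genes as red lines of arbitrary height. Dashed lines mark 2-fold. At 9 hpi il1b, il6 and il10 lie in the right tail beyond 1, and at 18 hpi il1b alone does.

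Counted over all 22 H3K27Ac regions of these genes, 6 were higher and 0 lower at 9 hpi, and 3 were higher and 0 lower at 18 hpi. Among all 41586 H3K27Ac regions, the shares at 9 hpi were 7.94% higher and 20.2% lower, and those at 18 hpi 11.3% and 14.1%. The 6 regions lay at il1b (3), il6, il10 and cxcl8a, and each of them had an interval at 9 hpi and none in control. From 9 to 18 hpi, 3 of the 22 were lower, against 1.01% of all regions, and 1, the region downstream of tnfb, was higher, against 2.39%. The 3 lower ones had an interval at 9 hpi alone, so the way regions entered the tables favoured a fall from that library. Of start regions with an interval at 9 hpi and none in control, 5.67% were lower. Likewise, the region downstream of tnfb had an interval at 18 hpi alone. Signal was weak in many of them: 14 of the 22 regions reached the 25th percentile of mean signal, and 3 of the 7 start regions, those of il1b, il6 and il34, did not. Of all start regions below that percentile, 11.7% were higher and 41.9% lower at 9 hpi, and 14.2% and 31.1% at 18 hpi.

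**Figure D4:**
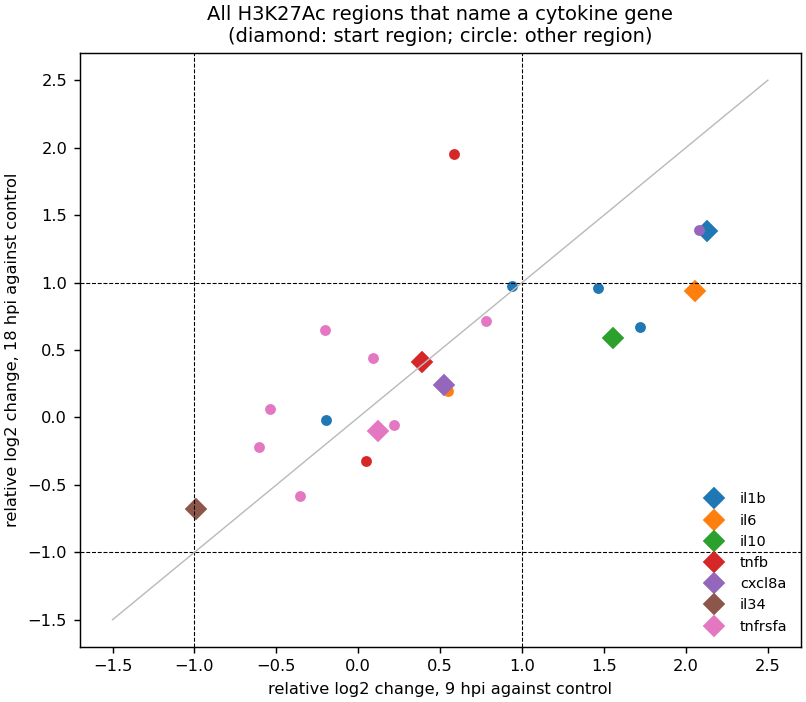
Relative log2 change at 9 hpi (horizontal axis) and at 18 hpi (vertical axis) against the same control library for all 22 H3K27Ac regions that name a cytokine gene, 1 point per region, coloured by gene. Points below the grey diagonal have the larger value at 9 hpi, diamonds are start regions, and the red circle at 0.59 and 1.95 is the region downstream of tnfb.

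H3K4me3 rose at the start region of il1b at both times and at that of tnfb at 18 hpi, and in both it was highest at 18 hpi. Only 4 of the 10 genes had an H3K4me3 region, il1b, tnfb, cxcl8a and tnfrsfa, with 7 regions. At il1b (45109801 to 45111800, inside the gene) the average was 1.82, then 6.18 and then 9.48, with relative changes of 1.40 and 1.93. The interval was called at 9 and 18 hpi, not in control. A stronger il1b region 18104 bp downstream, which also names purbb, had 16.2, 13.8 and 13.6 and relative changes of −0.16 and −0.21. At tnfb (34840601 to 34845000) the values were 6.52, 11.2 and 20.1, and the relative change was 0.75 at 9 hpi and 1.53 at 18 hpi. As deposited, H3K27Ac of both genes was highest at 9 hpi. After centring this held for il1b, while tnfb had relative H3K27Ac changes of 0.39 at 9 hpi and 0.41 at 18 hpi. The region that covers the start of a gene is a narrower choice, and for H3K4me3 it leaves out il1b, whose region begins downstream of the start.

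The start regions of the other 2 genes stayed below 2-fold in H3K4me3. At cxcl8a the start region had 14.3, 13.4 and 15.8, and at tnfrsfa it had 33.7, 34.4 and 43.2. So 1 of 4 start regions was higher at 9 hpi and 2 at 18 hpi, with 0 lower. Over all 21263 genes with an H3K4me3 start region, 3.24% were higher and 2.6% lower at 9 hpi, and 4.2% were higher and 2.81% lower at 18 hpi. Of start regions with an interval at 9 hpi and none in control, as at il1b, 46.1% were higher at 9 hpi, and of those with one at 18 hpi and none in control 49.3% were higher at 18 hpi. Over the 7 regions, 2 were higher at 9 hpi and 3 at 18 hpi, against 3.68% and 5.13% of all H3K4me3 regions. Besides start regions, a region 14624 bp inside tnfrsfa was higher at both times, with 2.82, 7.08 and 8.76 and relative changes of 1.13 and 1.39.

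All 4 start regions had their highest H3K4me3 at 18 hpi after centring, as did 39.7% of all genes, whereas 5 of the 7 in H3K27Ac had their highest value at 9 hpi, as did 41.8% of all genes. For tnfb the relative H3K27Ac changes at both times were nearly equal.

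Of the 6 genes with an H3K27me3 region, the start region rose at tnfrsfa alone. The mean signal of the start regions of il1b, tnfa and il10 exceeded that of 1.87%, 2.67% and 23.0% of genes, and that of tnfb, cxcl8a and tnfrsfa exceeded that of 50.4%, 51.3% and 58.5%. At the tnfrsfa start region for this mark (16118601 to 16121800) the average went from 4.29 to 12.6 and 11.3. Intervals were called after injury and not in control. The relative changes of 1.36 and 1.24 exceeded those of 99.9% and 99.8% of genes, and with a pseudocount of 5 they were 0.92 and 0.83, short of 2-fold. The neighbouring region (16122601 to 16131800), which covers the gene's start, had 6.196, 8.48 and 8.40 and relative changes of 0.40 and 0.41. Further into the gene, at 14524 bp, the values were 5.34, 11.7 and 10.9, with relative changes of 1.01 and 0.93. Another region, 10076 bp upstream, had 4.10, 12.0 and 7.07, and the last, 37024 bp into the gene, had 4.43, 8.10 and 8.36. All 5 H3K27me3 regions of tnfrsfa had a larger average in both injured libraries than in control. Only 1 of the 5 had an interval in control, while all 5 had one at 9 hpi. So the way regions entered the tables favoured this direction, and the 5 are parts of 1 gene. This gene kept its H3K27Ac and H3K4me3 at the start at the same times, and the H3K27me3 start region lies wholly within the H3K27Ac start region and shares 2400 bp with the H3K4me3 one.

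For H3K27me3, 1 of 6 start regions was higher at 9 hpi and 1 at 18 hpi, and over the 12 regions 3 and 1 were. Across all 17153 genes with a start region of this mark, 0.431% were higher at 9 hpi and 0.612% at 18 hpi, or 3.81% and 4.92% of those with an interval at that time and none in control. None of the 12 was lower. Over all H3K27me3 regions 0.811% and 1.11% were higher, and 0.171% and 0.265% lower. The interleukin genes il1b and il10 went the other way by less than 2-fold: il1b had 5.80, 4.48 and 5.08, and il10 had 7.89, 5.88 and 6.99. Both had an interval in control and none after injury. Each of these H3K27me3 regions covers the whole of the H3K27Ac region over the gene's start. In pooled tissue, marks that overlap may lie in different cells, and this was not tested.

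At cxcl8a a broad H3K27me3 region of 20200 bp spans both H3K27Ac regions and had 6.93, 9.71 and 9.58. At tnfb the mark was called only downstream of the gene, at 12275 bp, in a region that also names gabbr1a. The average there was 6.17, 9.24 and 10.6, with an interval at 18 hpi only. This region lies wholly within the H3K27Ac region at 11775 bp, which also had an interval at 18 hpi only. The 2 regions of tnfa, 6710 bp upstream and 9590 bp downstream, had 4.996, 5.47 and 5.32 and, in the same order, 4.33, 5.26 and 4.75. The relative changes of the last 3 genes stayed below 2-fold.

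The wider cytokine pathway was described through 4 lists, ordered as other ligands, receptors, signal transduction, and induced targets with feedback inhibitors. Their H3K27Ac counts are to be read against the 6.89% higher and 9.14% lower of all start regions at 9 hpi, and 6.79% and 7.78% at 18 hpi. In H3K27Ac, 8 of 23 other ligands with a region were higher and 4 lower at 9 hpi (median relative change 0.03), and 4 were higher and 3 lower at 18 hpi. These 23 genes have 21 distinct regions, so some regions are counted more than once. Among those within 5000 bp of a start, the interleukin-6 family gene m17 rose from 3.66 to 19.7 and 14.0. Next came il26, of the interleukin-10 family, from 3.35 to 13.4 and then 2.42, in a region it shares with il22, il12ba, a subunit of interleukin-12, from 3.23 to 12.8 and 3.23, and csf3b, a granulocyte growth factor, from 3.38 to 12.7 and 8.36. The 4 lower ones, named after their values were seen, were il4, il15, il15l and csf1a.

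Of 19 receptors, 3 were higher and 1 lower at 9 hpi (median 0.40), and 1 was higher at 18 hpi. These were csf3r, the receptor of granulocyte growth factors (5.23, 15.5 and 9.84), il10ra, a chain of the interleukin-10 receptor (7.29, 20.8 and 13.6), and csf1ra, of macrophages (6.88, 18.4 and 13.1), with il7r lower (5.14, 2.58 and 2.56). Of 31 signal transduction genes, 2 were higher and 0 lower at both times, with medians of 0.38 and 0.01. These 2 of 31 are close to the share of all genes that was higher, and the count is not a result about this list. They were caspa, an inflammasome caspase (8.03, 27.9 and 15.4), and the kinase gene jak2a (12.2, 32.8 and 23.7). Among 27 targets and inhibitors, 4 were higher and 1 lower at 9 hpi and 3 were higher at 18 hpi, with medians of 0.46 and 0.26. Those that rose included irg1, which encodes an itaconate-making enzyme (3.89, 19.01 and 11.6), the matrix protease gene mmp9 (2.08, 10.2 and 3.74), the acute-phase gene saa (1.97, 6.74 and 6.60) and, at 18 hpi, irf1a, an interferon regulatory factor (5.60, 10.4 and 11.2). The lower one, named after its values were seen, was dusp1, a phosphatase gene (16.2, 8.21 and 8.08).

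In H3K4me3 the same lists had more higher members at 18 hpi than at 9 hpi, except for the targets, with 3 at each time. Over all genes 3.24% were higher at 9 hpi and 4.2% at 18 hpi, and the count for signal transduction was below that share at both times. Of 19 other ligands, with 17 distinct regions, 2 were higher at 9 hpi and 5 at 18 hpi. Among these 5, il17a/f1 and il17a/f2 share 1 region. Of 17 receptors 3 and 5 were higher, and of 32 signal transduction genes 0 and 1, with none lower in any list. At m17 the average went from 1.53 to 9.20 and 14.6, at il21 from 4.23 to 12.5 and 18.8, and at the start shared by il17a/f1 and il17a/f2 from 1.80 to 3.73 and 11.7. The receptor genes csf3r (2.83, 12.8 and 17.8), il10ra (4.88, 9.51 and 16.9), csf1ra (2.67, 8.96 and 8.92) and il6r (8.32, 18.5 and 21.1) rose. So did rel, a subunit of NF-kB (10.1, 16.1 and 24.0), ptgs2b, a prostaglandin synthase (5.63, 12.8 and 19.9), irg1 (1.47, 6.22 and 6.39) and the AP-1 gene fosl1a (10.1, 29.1 and 31.4). In H3K27me3, 0 of 20 ligands, 0 of 10 receptors, 0 of 21 signal transduction genes and 1 of 23 targets, fosl2, had a start region that changed 2-fold. Over all genes 0.0874% were lower at 9 hpi and 0.152% at 18 hpi. The AP-1 gene fosl2 was lower in H3K27me3 (20.3, 9.12 and 4.04) and higher in H3K27Ac at 9 hpi (44.1, 105 and 60.1).

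**Figure D5:**
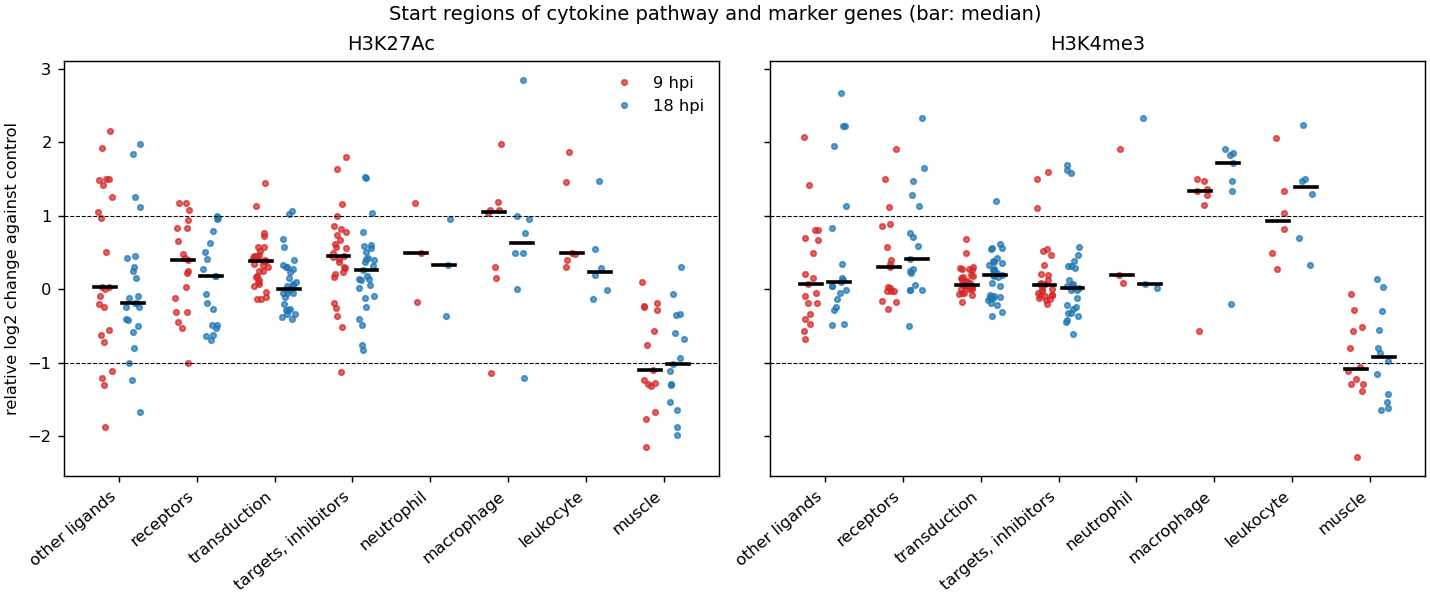
Relative log2 change against control of the start regions of the 4 cytokine pathway lists and of marker lists of 3 blood cell classes and muscle (lists along the horizontal axis, change on the vertical axis, H3K27Ac left and H3K4me3 right), at 9 hpi in red and 18 hpi in blue, 1 point per gene, with the median as a black bar. In H3K4me3 the macrophage medians are 1.34 and 1.72, while the muscle medians in H3K27Ac are −1.10 and −1.02.

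Some markers of leukocytes and of epidermis also rose after injury, and their part in the changes was not tested. Marker counts are to be read against all start regions. In H3K27Ac, 6.89% of these were higher and 9.14% lower at 9 hpi, and 6.79% and 7.78% at 18 hpi. In H3K4me3, 3.24% were higher at 9 hpi and 4.2% at 18 hpi. Summed over the 8 of 9 macrophage markers with an H3K27Ac region, the average was 57.7, then 98.9 and then 74.6. Of these, 5 were higher and 1 lower at 9 hpi, and 2 were higher and 1 lower at 18 hpi. In H3K4me3 the sum over 7 macrophage markers went from 37.8 to 81.7 and 109, with 6 higher at each time. For 6 general leukocyte markers the H3K27Ac sum was 76.9, 157 and 88.2, with 2 higher and 4 changed less than 2-fold at 9 hpi. Their H3K4me3 sum was 55.7, 96.6 and 118. Of 7 neutrophil markers 3 had a region, but only 1 within 5000 bp of a start in either mark. Their H3K27Ac sum was 48.0, 71.5 and 47.1 and their H3K4me3 sum 90.8, 107 and 106. Most of the H3K4me3 sum came from regions of mpx (49.7, 54.7 and 49.0) and npsn (38.2, 39.1 and 39.3) farther than 5000 bp away. The csf3r region had 2.83, 12.8 and 17.8. The markers lyz, cxcr1, mmp13a and cebpe had none, and no marker with a region stood at 0 in control. Of these markers, csf3r, csf1ra, cxcr1 and mmp13a are in the pathway lists too.

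Of 17 muscle markers, 15 had an H3K27Ac region, with a sum of 256 in control and 171 and 121 after injury. At each time 8 were lower, against 9.14% and 7.78% of all start regions. Their median in control was 18.1, near the median of 18.2 over the start regions of all genes (mean of the 3 libraries). These medians differ in the libraries used, and only 9 of the 15 regions lay within 5000 bp of a start. So in control the muscle list did not stand apart from the start regions of all genes. Its control median was the highest of the 8 marker lists, with neutrophil next at 17.9, from 3 regions, and epidermis lowest at 5.58. Whether such values tell muscle from other tissue was not tested. In H3K4me3 the sum over 12 was 200.2, 115 and 124. H3K27Ac sums in control, at 9 hpi and at 18 hpi were 88.4, 55.5 and 59.8 for fibroblast and tendon markers, 73.6, 92.9 and 63.0 for endothelium, 82.9, 44.0 and 25.2 for erythrocytes, and 59.8, 102 and 85.6 for epidermis.

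The patterns most like il1b were sought over the 9 libraries among 6242 genes with a region of all 3 marks within 5000 bp of the start. The nearest by Euclidean distance over log2(average + 1) were si:ch211-286b5.9 (0.71), si:dkey-42l23.4 (0.78), si:ch211-264f5.6 (0.94), LOC100148619 (0.96) and zgc:158446 (1.21), against a median distance of 5.51. At si:ch211-286b5.9, H3K27Ac went from 2.103 to 14.2 and 5.64, H3K4me3 from 1.94 to 4.71 and 8.82, and H3K27me3 from 6.25 to 5.98 and 5.72. For il6, whose only mark near the start was H3K27Ac, the nearest over 3 libraries were LOC560859, which shares the region, LOC100537200 (0.08), LOC100004843 and a si:ch73 gene with the same values (both 0.16) and tmem91 (0.20). The median distance there was 3.26.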

How the data were processed

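The tools BWA, SICER 12.1 and MACS2 2.1.0 and the build danRer10 stand in the submitters' processing notes, without their roles. The authors deposited a list of intervals for each library and, for each mark, a table of regions, the unions of overlapping intervals. The deposited values are signal, the average and maximum tag pileup over a region, with no ratio to input, and columns of another kind, 0 or 1 for an interval in each library. Scaling between libraries is not stated, and no depth or interval of precision can be given. The input library was not used here. The number of columns with no sample was 0.

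Changes used a pseudocount of 1 and were centred as the report defines, which understates weak regions. Gene starts were inferred from the deposited distances, which for each gene met within 1 bp. Coordinates count from 1. All 10 names matched the RefSeq table of GRCz12tu, used for names and neighbours alone. The rule for named genes was all 10 members, the 5 genes most like il1b and il6, up to 4 changed genes per pathway list within 5000 bp of a start, and genes that share a region. Members, lists and markers were chosen with earlier results of these data known. Calculations ran in Python 3.11.15 with pandas 2.3.3 and were tested on simulated data. Across all regions, other pseudocounts, scalings, thresholds and choices of region were tried as alternatives.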

Additional observations from a re-analysis of the deposited data

Results flagged for a closer look

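One H3K27Ac region between the starts of il34 and il10 was outside the comparisons because the authors' table names no gene for it (chromosome 11, 20951001 to 20952600). Its average pileup was 3.15 before injury, 10.86 at 9 hpi and then 4.23, and an interval was called at 9 hpi alone. It lies 25671 bp upstream of the il10 start, with a relative log2 change of 1.29 at 9 hpi and 0.49 at 18 hpi. No replicate stands behind this value, and its relation to either gene was not tested.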

How the results depend on the processing

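No paired analysis was possible because each mark had 1 library per time. Depth is unknown. Of 347 recomputed changes of single genes, 326 kept their side of 2-fold, 11 fell below it and 6 passed it. The 4 reversed were il1b represented by its region of highest signal. In H3K27Ac this was the shared broad one (−0.20 and −0.019 at 9 and 18 hpi). In H3K4me3 it was a region of 800 bp that lies 18104 bp downstream (−0.16 and −0.21). Without centring the counts of members against control stayed the same. From 9 to 18 hpi il1b was then lower in H3K27Ac too (−1.13), besides il6 and il10. For H3K27Ac at 9 hpi, 1 gene of the 3, il6, stayed higher with start regions within 1000 bp, where il1b (1696 bp) and il10 (1329 bp) had none. With the highest-signal region il10 stayed higher, while il1b (−0.20) and il6 (0.55) dropped out. Under that choice cxcl8a was higher at 9 hpi (2.08), and at 18 hpi (1.39) in place of il1b. At 3-fold il10, with 1.55, dropped out. With a pseudocount of 0.5 or at 1.5-fold, 1 gene became lower. At 18 hpi, the 1 higher gene became 0 with a pseudocount of 5, within 1000 bp, with the region that covers the start (chosen after seeing the data) or at 3-fold, 2 with a pseudocount of 0.5 or the maximum pileup, and 3 at 1.5-fold, where 1 was lower. Of the 2 genes lower from 9 to 18 hpi, 0 were left with a pseudocount of 5 or at 3-fold, and 1 with the highest-signal region or within 1000 bp. For H3K4me3, the 1 higher gene at 9 hpi became 0 with a pseudocount of 5, the highest-signal region, within 1000 bp, the covering region or at 3-fold, and 2 at 1.5-fold. The 2 at 18 hpi became 1 with the highest-signal region, the covering region or at 3-fold, and 0 within 1000 bp, and 1 was higher from 9 to 18 hpi at 1.5-fold. For H3K27me3, tnfrsfa dropped out at both times with a pseudocount of 5 (0.92 and 0.83), the covering region or at 3-fold, leaving 0, and 2 genes were higher at 18 hpi at 1.5-fold. With a stricter overlap for an interval (at least 0.5 of the region), 2 of the 4 H3K27Ac start regions kept their control interval. List medians changed their side of 2-fold in 20 of 192 recomputed values. The share of all start regions called moved over 1.5 times in 54 of 90, in all 18 with a pseudocount of 5. The cause was not tested.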

Other observations

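Within 50000 bp of the gene starts there were 26 further H3K27Ac regions that name no member, of which 4 were higher and 5 lower at 9 hpi. Over all H3K27Ac regions 7.94% were higher and 20.2% lower at that time, so the count of lower ones was near the share of all regions. Beside il1b, a region 13896 bp upstream that names LOC566865 had 8.10 before injury and 21.6 and 18.7 after it. Beside tnfb, a region 18875 bp downstream that names gabbr1a had 2.01, 7.12 and 10.3, and like the region at 11775 bp it was highest at 18 hpi. Downstream of cxcl8a, a region at 23753 bp that names ppp2r2ca had 2.20, 11.5 and 6.92. The 5 lower ones lay beside il34 (4, naming zgc:113307 or prelp) and upstream of cxcl8a, in camk2d2. None of the 12 H3K4me3 regions in these windows changed 2-fold.

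Near tnfa, the H3K27Ac region of sacm1la, 13110 bp upstream of the start, had 30.3, 56.5 and 37.3, and its relative log2 change at 9 hpi was 0.65.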
